A study of Homo sapiens with 32 samples.

Results

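Solute carriers are membrane proteins that move amino acids, sugars, metal ions, nucleosides, vitamins and metabolites across the plasma membrane or the membranes of organelles, and their genes carry symbols made of SLC and a family number. A gene was taken as a member when the symbol looked up for its Ensembl identifier began in that way. Of the 7978 genes with counts 125 were members, and these held 382 of the 26073 m6A peaks. By textbook substrate, 22 members were placed with amino acid transporters, 7 with transporters of glucose and other sugars, 12 with zinc transporters, 19 with transporters of other ions and 61 with other substrates. The remaining 4 were no transporters and comprised 3 antisense RNAs and SLC2A4RG, a DNA-binding regulator of a glucose transporter gene. All 125 passed the minimum of 10 reads in total over the 16 input libraries, and 111 had reads in every one of them.

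The libraries came from H1 and MEL1, human embryonic stem cell (hESC) lines of different genetic background, which were differentiated in culture towards pancreatic β-cells. RNA was taken from undifferentiated cells (S0) and at 3 later points, posterior foregut (S3), pancreatic progenitors (S4) and β-like cells that were still immature (S6), with 2 replicates for each line and stage. Purified mRNA was fragmented, a part was kept as input, and the rest was pulled down with an antibody against N6-methyladenosine (m6A), a methyl mark on adenosines of mRNA (IP library). Each line stands for 1 genotype, and the culture medium changed along the protocol, so stage and medium cannot be told apart. The methods list more glucose and added zinc sulfate only for the days after the S4 stage, so of the stages here only S6 had them. The figure legends of the study describe the replicates as independent biological samples, and p-values measure the spread between these libraries. In bulk RNA, fewer cells of a type and less RNA per cell cannot be told apart.

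Undifferentiated stem cells take up large amounts of glucose and amino acids. Pancreatic β-cells couple glucose uptake and metabolism to insulin secretion, and they load zinc into the secretory granules in which insulin is stored. Glucose enters through facilitative transporters of the SLC2 family, lactate and pyruvate cross through SLC16 proteins, zinc enters the cytosol through SLC39 proteins and leaves it through SLC30 proteins, and many essential amino acids enter through SLC7 light chains paired with the heavy chain SLC3A2. The classical β-cell glucose transporter SLC2A2 and the granule zinc transporter SLC30A8 had no peak and were not analysed here.

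Input libraries held 2648841 to 6872461 reads in peaks and IP libraries 2374009 to 15650330, with the fewest in both MEL1 S4 IP libraries. The share of input reads from mitochondrial transcripts was 26.5% to 41.0% at S0 and 11.6% to 16.4% at S6, and members took 1.51% to 2.11% of the rest. The labels were checked with marker genes by their summed input level in CPM (counts scaled to a common library size by TMM). The 8 measured markers of undifferentiated cells ran from 4305 to 6405 CPM at S0 and from 629 to 1001 at S6, and the 7 of posterior foregut from 15.3 to 15.9 at S0 and from 1024 to 3040 at S3. The 4 measured markers of pancreatic progenitors, PDX1, SOX9, MNX1 and ISL1, ran from 43.8 to 73.8 CPM at S4 and averaged 87.2 in H1 at S3. Of 9 β-cell markers only INS-IGF2, GLIS3 and CHGA were measured, and INS-IGF2 overlaps another gene, so insulin itself could not be checked. The 5 measured markers of hepatocytes, AFP, APOA1, APOB, VTN and FGB, summed to 497 CPM in H1 and 39400 in MEL1 at S3, to 195 and 73792 at S4, and to 357 and 8188 at S6. None of 4 enterochromaffin markers had counts, 3 mesenchymal markers reached 733 CPM in MEL1 at S4, and 3 neural markers reached 815 CPM in H1 at S6.

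The first question was how the input level of these genes changed between stages. A gene was called when the quasi-likelihood test of edgeR gave a p under 0.1, after Benjamini-Hochberg adjustment over all 7973 genes tested, and the change was at least 2-fold. At S3 against S0, 39 of 125 members (31.2%) were called, against 28.8% of all genes. Of these 26 were higher and 13 lower, where 15% and 13.8% of all genes were called higher and lower. At S6 against S0, 41 members were called, 29 of them higher and 12 lower, against 31.4% of all genes, 17.5% higher and 13.8% lower. Few members were called between the later stages. At S4 against S3 there were 2, SLC30A1 and SLC16A3, both higher, where 1.84% of all genes were called, 1.49% higher and 0.351% lower. At S6 against S4 there were 6, with SLC12A2, SLC19A3, SLC20A1 and SLC29A1 higher and SLC7A5 and SLC39A14 lower, where 5.17% of all genes were called, 2.83% higher and 2.33% lower. The members' shares lay near those of all genes in each comparison, and the median log2 change over the members was 0.16 at S3 and 0.12 at S6 against S0, beside -0.02 and 0.03 over all genes. Comparisons that share a stage share its libraries. Seen side by side, 17 members were called higher and 5 lower at both S3 and S6 against S0, SLC16A14 was called lower at S3 and higher at S6, the latter a call lost without any 1 of 7 preparations, and 68 members were called in no comparison with another 57 called in at least 1. These joint tallies were not made for all genes, so they are not read as a trait of the members. Of 35 other membrane transport genes (ABC transporters, SLCO genes and pumps) 12 were called at S3 against S0 and 11 at S6 against S0. Between S4 and S6 it was 8.

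**Figure D1:**
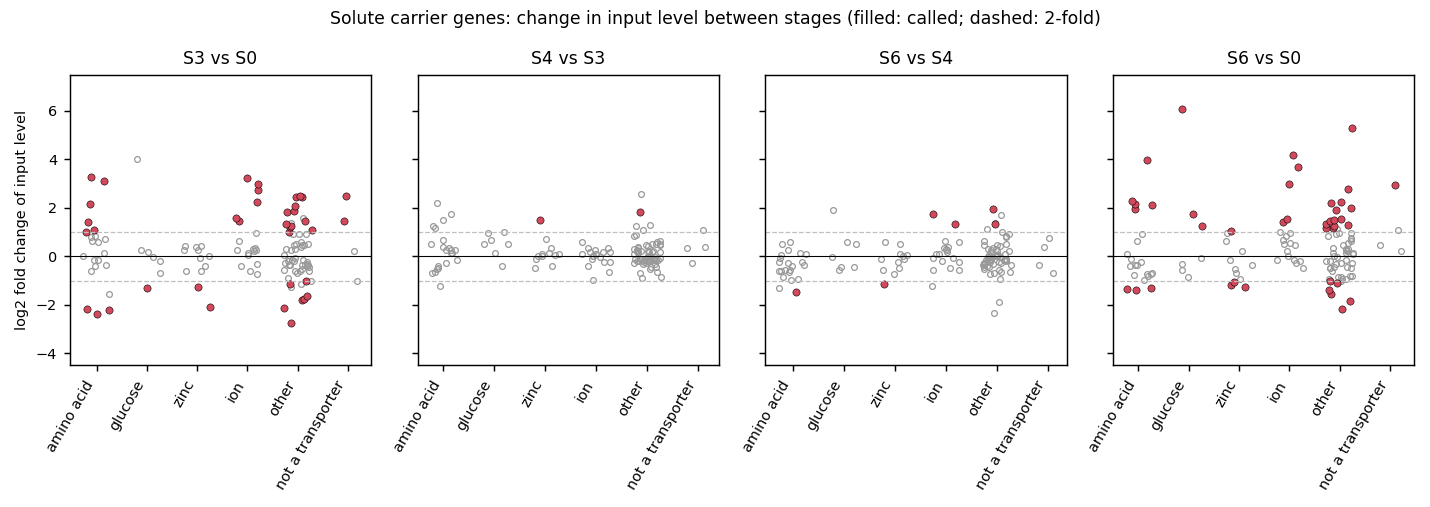
Log2 fold change of the input level (vertical axis) of the 125 members in 4 stage comparisons, by substrate group, 1 point per gene. Filled points are genes called (edgeR adjusted p under 0.1 and at least 2-fold, dashed lines); most called genes lie in the comparisons with S0, and 2 and 6 were called in S4 vs S3 and S6 vs S4.

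Amino acid transporters moved in both directions. Where 4 values are given in a row here and in what follows, those of H1 replicates 1 and 2 come before those of MEL1. At S3 against S0, 6 of 22 were called higher and 3 lower (40.9%), and at S6 against S0 5 and 3 (36.4%), beside 28.8% and 31.4% of all genes called. All 4 members of the SLC1 family were called at S3. SLC1A5, which exchanges glutamine and other neutral amino acids, was at 612 and 600 CPM in H1 and 694 and 890 in MEL1 at S0. At S3 it stood at 220 and 199 CPM in H1 and at 95.2 and 110 in MEL1. All S3 libraries were below all S0 libraries, and the level fell by 2.16 ± 0.38 on the log2 scale (SE; edgeR adjusted p = 0.000406). It stood higher again at S6 in MEL1, at 603 and 630 CPM, than in H1, at 230 and 239, and S6 against S0 was not called.

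The glutamate transporters SLC1A1 and SLC1A3 rose. SLC1A1 went from 4.12 and 5.24 CPM in H1 and 1.24 and 2.84 in MEL1 at S0 to 15.6 and 23.1 in H1 and 67.1 and 51.6 in MEL1 at S3, a log2 change of 3.09 ± 0.62 (edgeR adjusted p = 0.00115). SLC1A3 went from 4.36, 4.33, 4.12 and 2.40 CPM at S0 to 15.8, 22.3, 21.0 and 14.1 at S6, a log2 change of 2.27 ± 0.39 (edgeR adjusted p = 0.000293). In both genes no S0 library reached the lowest library of the later stage. SLC1A4, which carries alanine, serine and cysteine, was near the limit of counting at S0, with 4 reads over 4 libraries and 46 at S3. The scaled ratio was 11.3, with an exact 95% interval of 4.12 to 43.1 that covers counting error only. SLC38A10, of the family that moves glutamine and neutral amino acids, rose as well, from between 52.5 and 78.7 CPM at S0 to 172 and 151 in H1 and 523 and 642 in MEL1 at S3 (log2 change 2.16 ± 0.34, edgeR adjusted p = 0.00014).

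Several uptake genes of large and cationic amino acids were lower. SLC7A5, the light chain that imports leucine and other large neutral amino acids, was similar at S0 and S3 and then fell late. It was at 592 and 468 CPM in H1 and 572 and 629 in MEL1 at S4, and at 168 and 164 in H1 and 270 and 248 in MEL1 at S6. No S6 library reached an S4 library, and the level fell by 1.46 ± 0.17 on the log2 scale (edgeR adjusted p = 0.000192). SLC3A2, its heavy chain, did not follow a common course. It was at 421 and 465 CPM in H1 and 272 and 367 in MEL1 at S0, and at 220 and 187 in H1 against 661 and 698 in MEL1 at S3. The H1 libraries were lower and the MEL1 libraries higher at S3, and the mean change of 0.03 ± 0.32 was not called. SLC7A1, the main importer of arginine and lysine, was at 97.8 and 91.7 CPM in H1 and 10.8 and 9.95 in MEL1 at S3, after 138, 146, 187 and 209 at S0 (log2 change -2.23 ± 0.54, edgeR adjusted p = 0.00412). SLC43A1, another importer of large neutral amino acids, fell from between 8.72 and 14.8 CPM at S0 to between 1.36 and 2.89 at S3 (log2 change -2.39 ± 0.56, edgeR adjusted p = 0.00357). SLC7A8, a light chain for neutral amino acids, and SLC7A2, a cationic amino acid transporter, were called lower at S6 against S0 and in no other comparison, by log2 changes of -1.33 ± 0.53 and -1.39 ± 0.40 (edgeR adjusted p = 0.0513 and 0.0109). The call of SLC7A8 was lost when any of 4 single preparations was left out. The glutamine transporters SLC38A1 and SLC38A2 and the cystine importer SLC7A11 were not called in any comparison, with SLC38A2 at 253, 284, 633 and 566 CPM at S0 and 196, 206, 262 and 192 at S6.

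Of the 7 sugar transporters 1 was called lower at S3 (14.3%) and 3 higher at S6 (42.9%) against S0, beside 28.8% and 31.4% of all genes called. SLC2A1, the glucose transporter of most growing cells, was at 566 and 580 CPM in H1 and 952 and 1047 in MEL1 at S0, and at 2643 and 2639 in H1 and 2934 and 2844 in MEL1 at S6. Every S6 library was above every S0 library, with a log2 change of 1.74 ± 0.46 (edgeR adjusted p = 0.00692). On the way there the lines parted, with 1874 and 1873 CPM in H1 and 363 and 373 in MEL1 at S3. SLC2A3, a high-affinity glucose transporter of stem cells and neurons, was not called in any comparison and differed between lines at every stage. It was at 1946 and 1859 CPM in H1 and 5968 and 5024 in MEL1 at S0, and at 2157, 2133, 4357 and 4012 at S6. SLC2A10, a family member in intracellular membranes, rose from between 10.2 and 12.1 CPM at S0 to 19.04 and 17.005 in H1 and 40.8 and 39.98 in MEL1 at S6 (log2 change 1.26 ± 0.34, edgeR adjusted p = 0.00788). SLC2A6, a lysosomal family member, was the 1 sugar transporter called at S3, at 15.4 and 11.4 CPM in H1 and 4.76 and 4.07 in MEL1 after 12.8, 16.6, 17.5 and 27.9 at S0 (log2 change -1.30 ± 0.41, edgeR adjusted p = 0.0187). The H1 values overlapped those of S0, and the call was lost without MEL1 S0 replicate 2. SLC2A14, a near-identical copy of SLC2A3 whose reads cannot be told apart with certainty, was also called higher at S6, but it had 63.6 CPM in 1 H1 library and 0 in the other. SLC50A1, a sugar exporter, stayed between 2.25 and 13.9 CPM in all libraries and was not called.

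**Figure D2:**
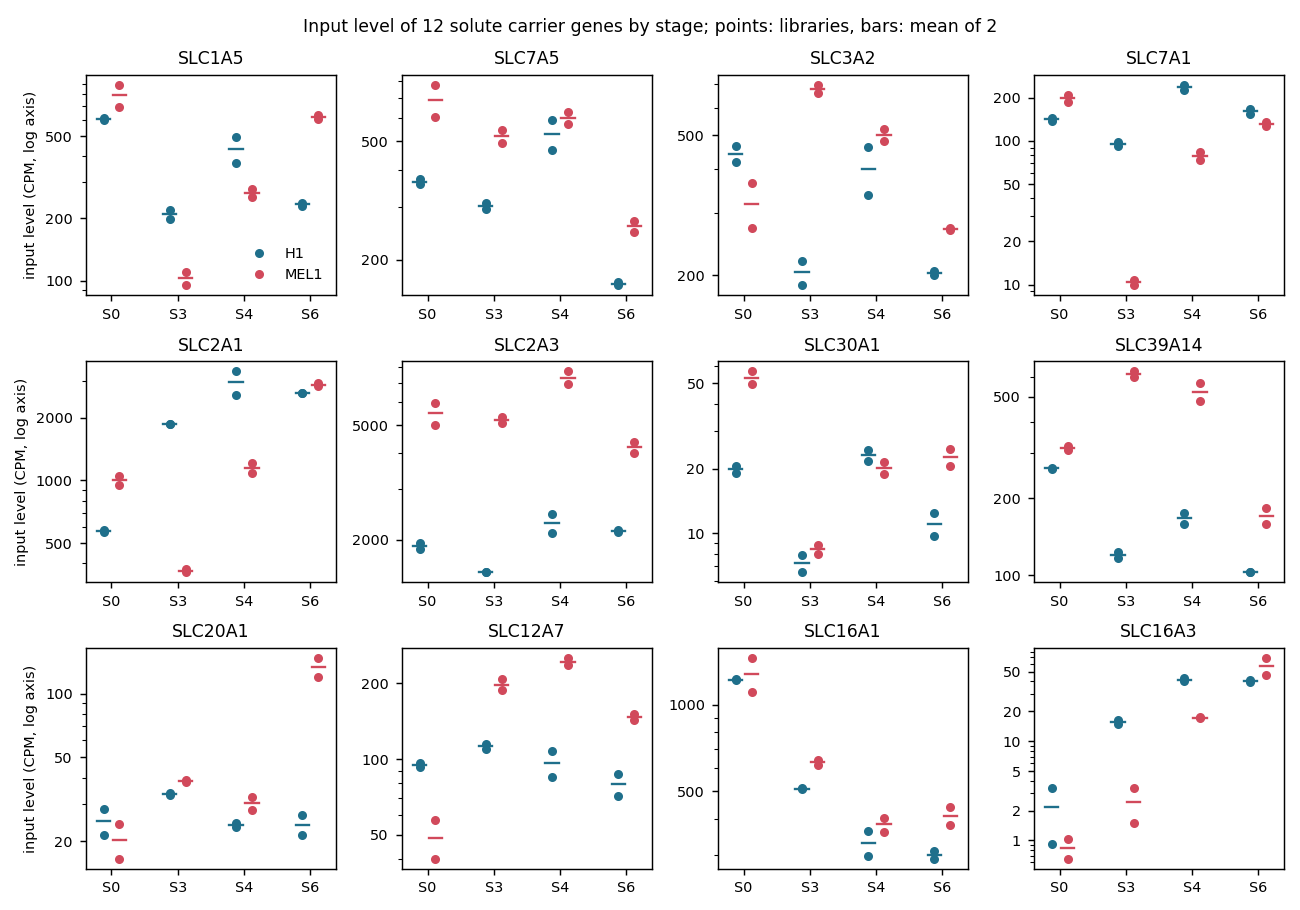
Input level in CPM (log axis) of 12 members at S0, S3, S4 and S6, with a point for each library of H1 and MEL1 and a bar for the mean of 2. SLC16A1 falls and SLC16A3 rises in both lines, while SLC2A1 and SLC3A2 at S3 lie on opposite sides of their S0 levels in H1 and MEL1.

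Of 12 zinc transporters 2 were called at S3 against S0 (16.7%), both lower, and 4 at S6 against S0 (33.3%), with 3 lower and 1 higher, beside 28.8% and 31.4% of all genes. SLC30A1, which exports zinc across the plasma membrane, fell first and then rose. It was at 19.1 and 20.5 CPM in H1 and 56.7 and 49.3 in MEL1 at S0, at 7.90 and 6.61 in H1 and 8.02 and 8.82 in MEL1 at S3, and at 24.5 and 21.6 in H1 and 21.5 and 18.9 in MEL1 at S4. All S3 libraries were below all libraries of S0 and of S4, with a log2 change of -2.10 ± 0.30 at S3 against S0 (edgeR adjusted p = 6.76e-05) and of 1.51 ± 0.30 at S4 against S3 (edgeR adjusted p = 0.02). At S6 it stood at 12.5 and 9.72 CPM in H1 and 24.7 and 20.6 in MEL1, which was called lower against S0, a call lost without any 1 of 3 preparations. SLC39A14, an importer of zinc and iron, was at 176 and 159 CPM in H1 and 569 and 480 in MEL1 at S4 and at 103 and 103 in H1 and 183 and 158 in MEL1 at S6. It fell by 1.15 ± 0.32 on the log2 scale (edgeR adjusted p = 0.0437), and the call was lost without any 1 of the 4 MEL1 preparations of these stages. SLC39A9, a zinc transporter of the secretory pathway, was the member of this group called higher, from 20.8, 21.4, 35.0 and 35.3 CPM at S0 to 46.1, 37.8, 67.8 and 84.4 at S6 (log2 change 1.05 ± 0.16, edgeR adjusted p = 9.99e-05). Without either of 2 preparations the change of SLC39A9 was not called. SLC39A7, which releases zinc from the endoplasmic reticulum, rose by less than the 2-fold limit, from between 297 and 384 CPM at S0 to 526, 504, 906 and 974 at S6 (log2 change 0.98 ± 0.22, edgeR adjusted p = 0.0023). SLC39A10, an importer of the plasma membrane, changed by -0.92 ± 0.26 between the same stages, and SLC39A3, with under 7 CPM in each library, was called lower at both S3 and S6 against S0.

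SLC30A1 is a textbook target of the metal-responsive transcription factor MTF1, which binds short metal response elements. Because this gene fell and rose between stages, the 250 bases before its start are shown, from RefSeq at chr1:211579162-211579411 on the minus strand of GRCh38.p14. The capitals mark the single match on either strand to TGCGCNC or TGCACNC, the core of these elements, which begins 49 bases before the start.

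SLC30A1: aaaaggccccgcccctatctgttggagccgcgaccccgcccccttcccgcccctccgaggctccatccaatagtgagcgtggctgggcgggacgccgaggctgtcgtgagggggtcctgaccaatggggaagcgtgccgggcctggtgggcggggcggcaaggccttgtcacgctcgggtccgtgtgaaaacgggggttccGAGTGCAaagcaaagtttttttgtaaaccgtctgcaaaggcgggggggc

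This core is short and was searched after the values of the gene were seen. It was found in 6751 of 27305 promoters of the same length (24.7%), in 33 of 99 members with a promoter in the table (33.3%) and in 4 of 11 zinc transporters, SLC30A1, SLC30A6, SLC39A3 and SLC39A6. A match is a run of letters and not a binding site. The methods list added zinc only after the S4 stage, and a part of zinc in these changes was not tested.

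Among 19 transporters of other ions, 6 were called at S3 (31.6%) and 5 at S6 (26.3%) against S0, all higher, beside 28.8% and 31.4% of all genes called in either direction. SLC40A1, the iron exporter ferroportin, was under 1 CPM in each S0 library and at 4.63 and 4.42 CPM in H1 and 6.74 and 8.08 in MEL1 at S6 (log2 change 3.68 ± 0.75, edgeR adjusted p = 0.00106). SLC12A2, which imports sodium, potassium and chloride together, was likewise under 1 CPM in all S0 libraries and rose to 4.98 and 5.52 CPM in H1 and 28.4 and 25.8 in MEL1 at S6 (log2 change 4.18 ± 0.63, edgeR adjusted p = 9.89e-05). SLC26A11, an anion transporter, rose at S3, from between 12.1 and 14.5 CPM to 24.3 and 25.6 in H1 and 69.1 and 57.2 in MEL1 (log2 change 1.57 ± 0.25, edgeR adjusted p = 0.000194). SLC9A8, a sodium/proton exchanger of the Golgi, was called higher at both stages, by 1.47 ± 0.43 and 1.42 ± 0.44 (edgeR adjusted p = 0.0145 and 0.0173). SLC20A1, an importer of phosphate, was at 28.6 and 21.4 CPM in H1 and 24.1 and 16.6 in MEL1 at S0, and at 21.3 and 26.7 in H1 and 147 and 120 in MEL1 at S6. The rise of 1.53 ± 0.43 (edgeR adjusted p = 0.00977) rested on MEL1, with the H1 libraries of both stages overlapping. At S6 against S4 the rises of SLC20A1 and SLC12A2 were 1.32 ± 0.42 and 1.76 ± 0.55 (edgeR adjusted p = 0.0808 and 0.0761), and these calls were lost without any 1 of 6 and of 5 preparations. The bicarbonate transporters SLC4A3 and SLC4A8 were called higher at S3 on few reads, with SLC4A3 at 2 reads over 4 libraries at S0 and 17 at S3 (ratio 8.33, exact 95% interval 1.98 to 74.3). The call of SLC4A3 was lost without any of 5 single preparations. The iron and manganese importer SLC11A2 was not called.

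The monocarboxylate transporters SLC16A1 and SLC16A3 moved in opposite directions in both lines. SLC16A1, which carries lactate and pyruvate either way with high affinity, was at 1216 and 1231 CPM in H1 and 1451 and 1104 in MEL1 at S0, at 507, 511, 615 and 644 at S3, and at 309, 291, 380 and 439 at S6. No library of S3 or S6 reached an S0 library, and the log2 change at S6 against S0 was -1.84 ± 0.15 (edgeR adjusted p = 2.44e-07). SLC16A3, the lactate exporter of glycolytic cells, was at 3.39 and 0.911 CPM in H1 and 1.03 and 0.654 in MEL1 at S0, at 16.2, 14.9, 1.503 and 3.39 at S3, and at 40.1, 43.3, 17.2 and 17.4 at S4. By S6 it stood at 41.6, 39.3, 68.5 and 46.0 CPM. Its log2 change was 1.84 ± 0.48 at S4 against S3 (edgeR adjusted p = 0.0745) and 5.27 ± 0.59 at S6 against S0 (edgeR adjusted p = 6.11e-06). The former call was lost when any of 7 single preparations was left out, and the latter was kept without each single preparation. SLC16A14, an orphan of the family, was lower at S3, with 0 CPM in both MEL1 libraries, and between 2.42 and 9.25 CPM at S6.

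Of 3 nucleoside transporters 2 were called at S3 (66.7%) and 1 at S6 (33.3%) against S0, beside 28.8% and 31.4% of all genes called. SLC29A1, the main nucleoside transporter, was at 91.8 and 99.996 CPM in H1 and 71.3 and 84.2 in MEL1 at S0, at 17.6, 17.6, 23.0 and 21.9 at S3, and at 31.8, 34.9, 68.5 and 52.1 at S6. It fell by 2.15 ± 0.22 on the log2 scale at S3 (edgeR adjusted p = 2.65e-06) and rose by 1.32 ± 0.22 at S6 against S4 (edgeR adjusted p = 0.00274), with no overlap between the libraries in either comparison. SLC29A4, which moves monoamines and adenosine, rose from 11.9, 15.9, 2.68 and 6.33 CPM at S0 to 31.1, 36.0, 77.1 and 106 at S6 (log2 change 2.79 ± 0.48, edgeR adjusted p = 0.000288). SLC46A1, the proton-coupled folate transporter, rose from 16.5 and 17.995 CPM in H1 and 56.3 and 54.8 in MEL1 to 52.8 and 52.8 in H1 and 299 and 302 in MEL1 at S6 (log2 change 1.99 ± 0.27, edgeR adjusted p = 3.46e-05). The thiamine transporter SLC19A2 fell at S3, by 1.62 ± 0.40 on the log2 scale (edgeR adjusted p = 0.00465), and SLC23A2, an ascorbate transporter, rose by 1.24 ± 0.31 (edgeR adjusted p = 0.00529). SLC19A3, a second thiamine transporter that is named here after its values were seen, was at 71.9 and 54.9 CPM in MEL1 at S6, where the H1 libraries had 3.02 and 2.87, and was called higher at S6 against S4. SLC5A6, which carries biotin and pantothenate, was called lower at S6 against S0 (log2 change -1.09, edgeR adjusted p = 0.00696), and the riboflavin transporters SLC52A2 and SLC52A3 were not called in any comparison.

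Mitochondrial and Golgi carriers made up much of the remaining group. Of 15 members of the SLC25 family, mostly mitochondrial carriers, that were placed with other substrates, 3 were called at S3 and 3 at S6 against S0. SLC25A5, which exchanges ADP and ATP, was at 698 and 692 CPM in H1 and 402 and 478 in MEL1 at S0 and between 276 and 298 in all 4 libraries at S6 (log2 change -1.02 ± 0.29, edgeR adjusted p = 0.011). The call was lost without any 1 of 4 preparations. Its paralog SLC25A6 was not called, and reads of both may be shared with processed copies. SLC25A17, a peroxisomal carrier, was called lower at S6 against S0, and SLC25A51, which imports NAD into mitochondria, was called lower at S3 against S0. Of 13 members of the nucleotide sugar family, 4 were called at S3 (30.8%), 3 higher and 1 lower, and 4 at S6 (30.8%), all higher. These shares lay near those of all genes, of which 17.5% were called higher at S6 against S0. SLC35F6, a lysosomal member of that family, rose from 2.18, 2.73, 4.12 and 9.38 CPM at S0 to 12.2, 9.50, 42.3 and 45.0 at S3 (log2 change 2.45 ± 0.29, edgeR adjusted p = 1.31e-05). SLC35E2B, an orphan with a close paralog, rose from 162, 154, 94.998 and 116 CPM to 339, 355, 246 and 268 (log2 change 1.21 ± 0.14, edgeR adjusted p = 9.87e-06). The creatine transporter SLC6A8 was not called. Among the RNAs that are no transporters, SLC9A3-AS1 rose from 25.9, 31.9, 4.95 and 16.1 CPM at S0 to 142, 136, 132 and 158 at S6 (log2 change 2.94 ± 0.36, edgeR adjusted p = 1.36e-05). The libraries were made with a stranded kit, but whether reads were counted by strand is not given in the sources used here. Reads of the opposite strand can therefore not be told apart with certainty.

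Because several members went opposite ways in H1 and MEL1, a test was run on how far each stage change differed from H1 to MEL1. At S3 against S0, 50 of 125 members (40.0%) were called as different, against 34% of all genes. At S6 against S0 it was 36 members, against 25.1% of all genes. At S3 the change was more positive in MEL1 than in H1 in 34 of these and less positive in 16, where 16.5% and 17.6% of all genes were called in these directions. At S6 it was more positive in 26 and less positive in 10, beside 13.7% and 11.4% of all genes. At S3, 17 of 22 amino acid transporters, 8 of 12 zinc transporters and 3 of 19 transporters of other ions were called, and at S6 these counts were 8, 3 and 6. The difference between groups was not tested. SLC2A1 changed by 1.71 in H1 and -1.44 in MEL1 on the log2 scale, a difference of -3.15 ± 0.19 (edgeR adjusted p = 1.47e-10). SLC7A8 changed by -1.82 in H1, from 269 and 263 CPM to 76.4 and 74.7, and by 1.56 in MEL1, from 303 and 269 CPM to 896 and 788 (difference 3.37 ± 0.20, edgeR adjusted p = 8.77e-11). SLC3A2 changed by -1.12 and 1.09 (difference 2.21 ± 0.22, edgeR adjusted p = 1.68e-07). These 3 named genes were past 2-fold in opposite directions in H1 and MEL1.

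Further members called as different included the following. SLC7A1 fell by 4.25 on the log2 scale in MEL1 and by 0.58 in H1 (difference -3.67 ± 0.22, edgeR adjusted p = 8.98e-11). SLC39A14 changed by -1.13 in H1 and 0.97 in MEL1 (difference 2.10 ± 0.18, edgeR adjusted p = 2.26e-08). SLC12A7, a potassium and chloride cotransporter, was at 92.7 and 96.4 CPM in H1 at S0 and at 115 and 110 at S3, but went from 40.2 and 57.1 to 188 and 207 in MEL1 (difference 1.77 ± 0.24, edgeR adjusted p = 7.12e-06). At S6, SLC17A9, the vesicular nucleotide transporter, had gone from 33.9 and 33.9 CPM to 8.18 and 5.96 in H1 and from 38.3 and 56.9 to 98.8 and 118 in MEL1 (difference 3.43 ± 0.41, edgeR adjusted p = 3.66e-06). SLC22A23, from the family of organic ion transporters, differed by 2.25 ± 0.29 (edgeR adjusted p = 6.35e-06), and SLC20A1 by 2.77 ± 0.31 (edgeR adjusted p = 1.46e-06). SLC7A5, SLC16A1, SLC35F6, SLC35E2B and SLC39A9 were among the members whose change was not called as different. The 5 hepatocyte markers moved with the line as well, from 2.86 to 497 CPM in H1 and from 24.96 to 39400 CPM in MEL1 between S0 and S3, while the markers of undifferentiated cells went from 4410 to 1779 in H1 and from 5895 to 543 in MEL1. Their part in these differences was not tested. Every line and stage rests on 2 libraries.

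**Figure D3:**
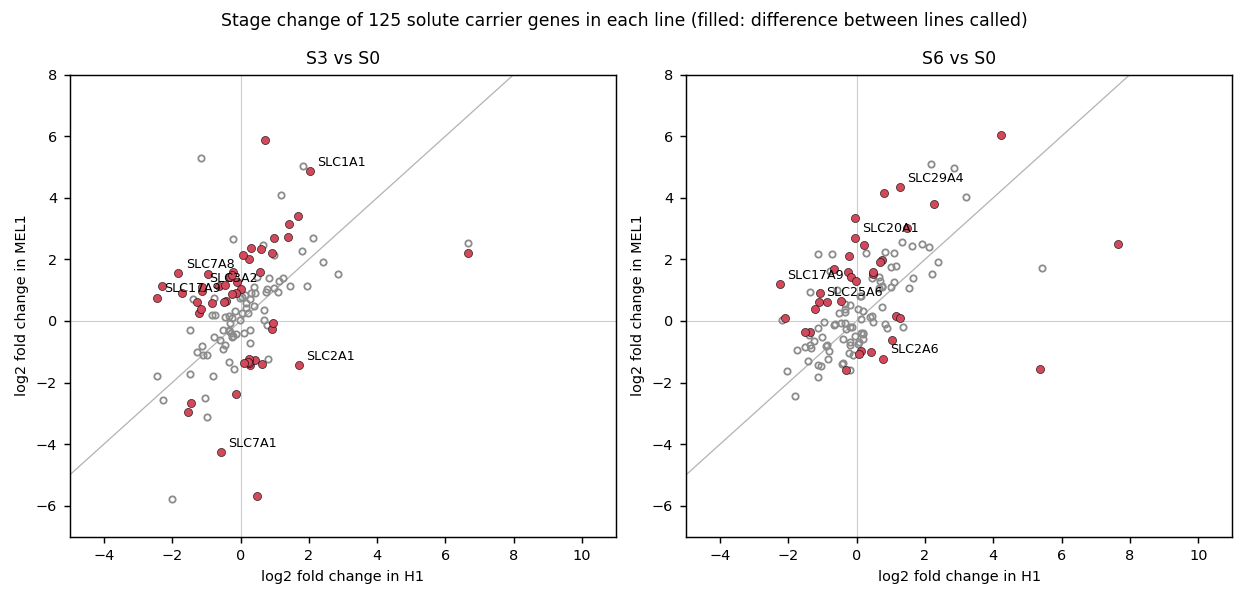
Log2 fold change of the 125 members in H1 (horizontal axis) and MEL1 (vertical axis) at S3 and at S6 against S0, with filled points where the difference between lines was called, 50 at S3 and 36 at S6. Points on the grey diagonal changed equally in both lines; SLC2A1 lies to the right and below 0 at S3, and SLC7A8 and SLC17A9 lie to the left and above it.

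For m6A, the read-out was the ratio of IP to input reads in each merged peak on the log2 scale, after TMM scaling over all 32 libraries, so a value of 0 means the same share of reads in both and not the absence of the mark. Peaks were called enriched at a stage by the edgeR thresholds above, applied to IP against input. Of the 382 member peaks 117 were enriched at S0 and as many at S6, 114 at S3 and 59 at S4, beside 30.3% of all peaks at S0, 28.5% at S6, 30.8% at S3 and 20.6% at S4. In 47 member peaks the call was made at all 4 stages and in 229 at none, and these joint counts were not made for all peaks. By group, the enriched peaks at S0 were 17 of 84 for amino acid, 8 of 31 for sugar, 13 of 44 for zinc, 21 of 53 for other ion and 54 of 162 for other transporters, and the difference between groups was not tested. Summed over the peaks of a gene, the median log2 ratio over members was 1.42 and 1.48 in H1 and 0.90 and 0.56 in MEL1 at S0. At S4 it was 0.57 and 0.44 in H1 and -0.09 and -0.03 in MEL1, and at S6 1.31, 1.25, 1.01 and 0.95. All 4 S4 preparations were below all of S3 and S6, in MEL1, with the shallowest IP libraries, and in H1, whose S4 IP libraries held 11629895 and 13961962 reads. The median over all genes moved the same way, from 1.24 and 1.24 in H1 at S0 to 0.75 and 0.60 at S4. No change in methylation was called in a member peak at S3 against S0 with edgeR, beside 0.0537% of all peaks. There, 20 of the 382 member peaks had an unadjusted edgeR p under 0.05, beside 1497 of all 26073 peaks. DESeq2 called 3 member peaks.

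At S4 against S3, 35 member peaks in 30 genes were called, 3 higher and 32 lower, where 7.4% of all peaks were called, 0.809% higher and 6.59% lower. At S6 against S4 it was 26, 21 higher and 5 lower, where 7.69% of all peaks were called, 5.66% higher and 2.03% lower. Both comparisons use the S4 libraries, so values that are low at S4 enter them with opposite signs, and the 18 peaks called in both had opposite signs. At S6 against S0, 2 peaks were called, both lower, beside 1% of all peaks. The S4 libraries enter this comparison through the scaling and the shared estimate of spread, and without H1 S4 replicate 1 no member peak was called and the median change of all peaks was -0.0191 in place of -0.3139. The IP and input libraries of a preparation share their RNA. With a term for each preparation, added after seeing the data, 49 member peaks were called at S4 against S3, 3 higher and 46 lower. At S6 against S4 there were then 44, 41 higher and 3 lower, and at S6 against S0 there was 1, lower. Calls over all 26073 peaks rose as well with this term, from 1930 to 2665 at S4 against S3 and from 2004 to 2539 at S6 against S4. The balance of directions depended on the scaling. The median change of all peaks at S4 against S3 was -0.43 with TMM over all libraries and 0.05 with DESeq2's size factors (RLE), and that of member peaks -0.58 and -0.07. With RLE, 4 member peaks were called higher and 8 lower, and DESeq2 called 15 higher and 13 lower. For S6 against S4 the median of all peaks was 0.22 with TMM and -0.12 with RLE, that of member peaks 0.39 and 0.04, and 11 member peaks were called higher and 10 lower with RLE and 20 and 25 with DESeq2.

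**Figure D4:**
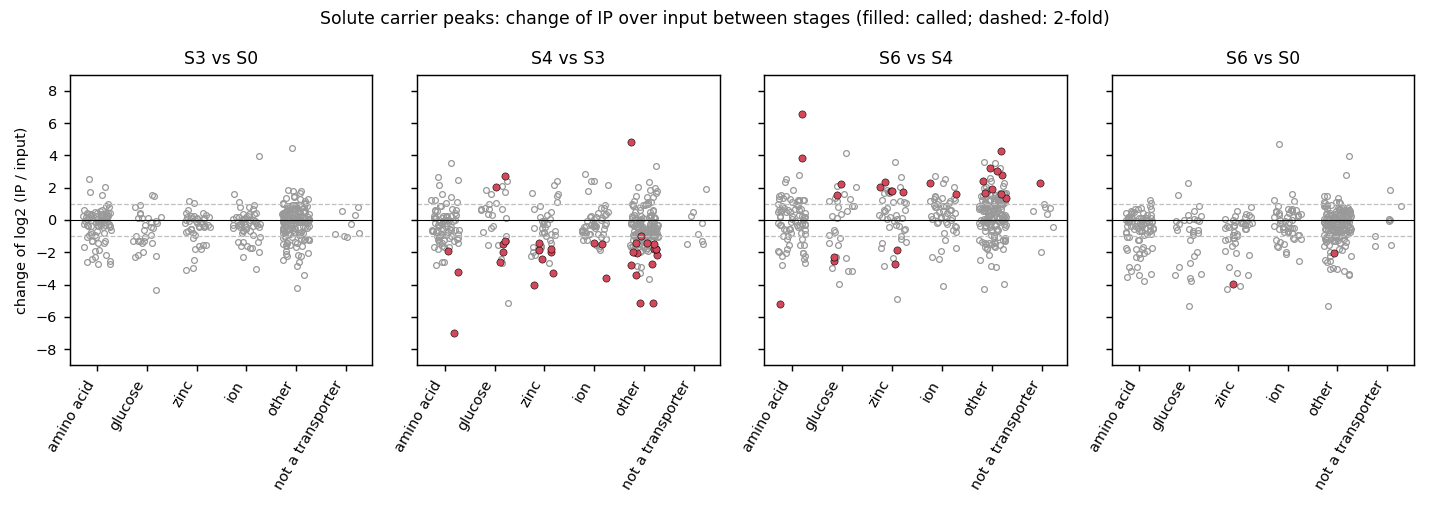
Change of the log2 ratio of IP to input (vertical axis) in 382 member peaks in 4 stage comparisons, by substrate group, 1 point per peak. Filled points are called peaks; there are none in S3 vs S0, 35 in S4 vs S3, 26 in S6 vs S4 and 2 in S6 vs S0.

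Zinc transporters had 7 of 44 peaks called at S4 against S3, all lower, beside 6.59% of all peaks called lower. Of these 7 zinc transporter peaks only that of SLC39A1 was called with RLE, and only that and the peak of SLC30A1 with TMM within each library type, so the count depended on the scaling. The zinc transporters had 5 peaks called higher and 2 lower at S6 against S4, of which 3 and 2 were called with RLE. Of all peaks, 5.66% were called higher and 2.03% lower in that comparison. In SLC39A1, a zinc importer of the plasma membrane, the peak at position 689 of its identifier had few IP reads at all stages, with log2 ratios at S3 of -4.00 and -4.08 in H1 and -4.09 and -3.59 in MEL1 and at S4 of -8.16, -5.19, -10.26 and -7.90. All S4 values were below all S3 values, and the change was -3.30 ± 0.62 (edgeR adjusted p = 0.00371). In SLC30A1, peak 3875 was enriched and had ratios of 2.47, 2.85, 2.54 and 3.80 at S3, 0.50, 0.73, 1.14 and 1.98 at S4 and 2.41, 2.88, 2.91 and 2.85 at S6. Its ratio fell by 1.81 ± 0.44 (edgeR adjusted p = 0.0188) and rose by 1.70 ± 0.43 (edgeR adjusted p = 0.0243), and with RLE the former was -1.34 and not called. This is the stage at which the input level of the gene was higher than at S3. In SLC39A7, peak 1501 was 1 of the 2 called at S6 against S0, with ratios of -3.13, -3.07, -0.40 and 0.76 at S0 and -3.75, -5.005, -5.49 and -7.18 at S6, a fall of 3.98 ± 0.96 (edgeR adjusted p = 0.0619). None of these ratios reached the 2-fold limit used for enrichment. The other peak called at S6 against S0 was peak 3439 of SLC46A1, with 2.20, 2.24, 0.72 and 1.38 at S0 and -0.36, -0.50, 0.35 and -0.36 at S6, a fall of 2.01 ± 0.54 (edgeR adjusted p = 0.0889). Neither peak was called without H1 S4 replicate 1, H1 S6 replicate 2 or any of the 4 MEL1 preparations of S0 and S6. The peak of SLC46A1 was not called with RLE (adjusted p = 0.122) or with TMM within each library type (0.132). With a term for each preparation, the peak of SLC46A1 was called and that of SLC39A7 was not (edgeR adjusted p = 0.0796 and 0.15).

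In SLC2A3, peaks of 1 gene went opposite ways. Peak 1210, which held most reads of the gene, had ratios of 0.74, 0.97, 0.89 and 1.19 at S3 and -0.61, -0.31, -0.12 and -0.35 at S4, and the ratio changed by -1.30 ± 0.38 (edgeR adjusted p = 0.0493). Peak 260 had -6.57, -5.91, -8.03 and -7.03 at S3 and -4.45, -3.78, -4.32 and -5.64 at S4, a rise of 2.70 ± 0.55 (edgeR adjusted p = 0.00713), on at most 67 IP reads in a library. All of these ratios are negative, so peak 260 was not enriched in IP at either stage. Peak 4810 rose by 2.03 ± 0.68 (edgeR adjusted p = 0.0886). The rises were called with all 3 scalings and the fall of peak 1210 only with TMM over all libraries. In SLC7A2, the only peak, 2401, had ratios of 0.58, 0.68, 1.94 and 2.13 at S3, -2.06, -1.99, -0.55 and -3.13 at S4 and 2.23, 1.66, 1.77 and 2.56 at S6, and it changed by -3.23 ± 0.70 and 3.84 ± 0.72 (edgeR adjusted p = 0.0112 and 0.00393).

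Among mitochondrial carriers, peak 5201 of SLC25A36, a pyrimidine nucleotide carrier with up to 12960 IP reads in a library, had ratios of 2.94 to 3.06 at S3 in both lines, 1.25 and 1.04 in H1 and 2.54 and 1.79 in MEL1 at S4, and 2.84 to 2.94 at S6. Its changes of -1.43 ± 0.42 and 1.35 ± 0.42 (edgeR adjusted p = 0.0512 and 0.0652) were called only with TMM over all libraries. In SLC25A28, a mitochondrial iron importer, peak 456 changed by -1.42 ± 0.39 and 2.31 ± 0.39 (edgeR adjusted p = 0.0352 and 0.00147), of which the former was called only with TMM over all libraries and the latter with all 3 scalings tried. Peaks of SLC35A1, a transporter of CMP-sialic acid (position 1101), and of SLC35E2B (position 896) rose at S6 against S4 by 3.03 ± 0.61 and 3.21 ± 0.68 (edgeR adjusted p = 0.00565 and 0.00781), as did peak 4716 of SLC23A2, by 4.26 ± 0.99 (edgeR adjusted p = 0.0154). The same peaks were called lower at S4 against S3, with changes of -2.71, -2.77 and -3.43, the last only with TMM over all libraries. In 4 of the 35 peaks called at S4 against S3 and 2 of the 26 at S6 against S4 no library of 1 stage held more than 3 IP reads. These were peak 3201 of SLC7A6, 2 peaks of SLC25A5, peak 3301 of SLC30A6 and peak 5303 of SLC38A2, and no fold is given for them. Without H1 S4 replicate 1 the count at S4 against S3 was 5, with 3 higher and 2 lower, without MEL1 S3 replicate 2 it was 11 and without H1 S4 replicate 2 it was 13.

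**Figure D5:**
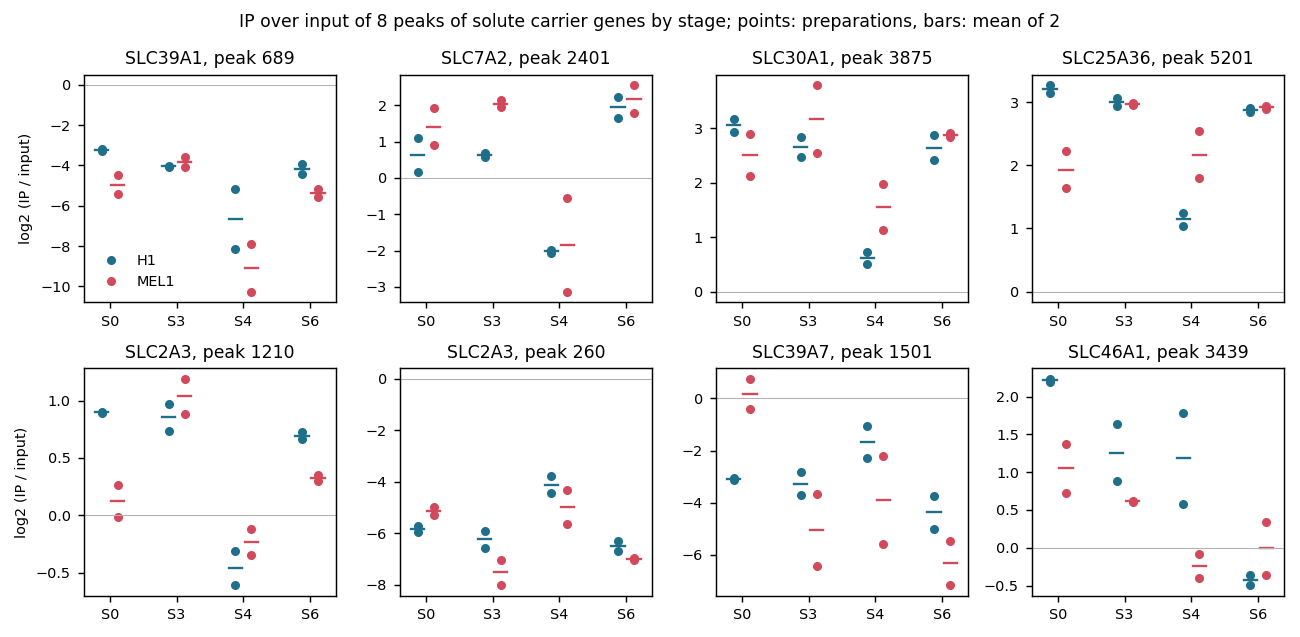
Log2 ratio of IP to input (vertical axis) of 8 member peaks at S0, S3, S4 and S6, named by gene and the position in the peak's identifier, with a point for each preparation of H1 and MEL1 and a bar for the mean of 2. In SLC39A1, SLC7A2, SLC30A1, SLC25A36 and peak 1210 of SLC2A3 the S4 points lie below those of S3 and S6, while peak 260 of SLC2A3 lies above them.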

How the data were processed

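m6A sequencing was performed on H1 and MEL1 cells at S0, S3, S4 and S6, with an IP and an input library for each of 16 preparations. The authors deposited raw read counts per merged m6A peak and library, made with MeRIPtools from 50-bp bins of genes of Ensembl annotation version 94. The aligner is not given in the sources used here. Genes without a peak carry no counts, and a gene's input level covers only its peaks and levels were not compared between genes.

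Of 26104 deposited rows 31 were second copies of pseudoautosomal genes, which held 99.62% of the counts of the first copies, and were left out. Symbols were found for 7938 of 7978 identifiers. Input counts were summed per gene, scaled by TMM and tested in edgeR 4.0.16 (R 4.3.3, limma 3.58.1) with the quasi-likelihood test on stage and cell line in all 16 input libraries. Changes in m6A were tested for each peak in all 32 libraries by the stage-by-library-type interaction term, with terms for cell line and for line by library type but none for the preparation that an IP and an input library share (a fit with that term was an alternative), and line differences by contrasts of the 8 line-stage means. Genes and peaks with a total of at least 10 reads were kept. Adjusted p-values (Benjamini-Hochberg) cover all genes or peaks tested, and calls required at least a 2-fold change beside an adjusted p under 0.1. Standard errors were obtained from the log2 change and its F statistic, as the former over the root of the latter. Ratios of few reads carry exact 95% intervals. Scripts were tested on simulated data. Named were members of a set of 35 known transporters, of which 24 had a peak, up to 8 called genes with the largest rises and falls in each comparison (at least 1 CPM in the higher stage, same direction in all 4 same-numbered pairs), up to 5 called peaks each way, the 3 members of each group with the smallest p, and up to 6 genes by line difference. This gave 60 genes, and other members given by name were chosen after their values were seen. The members, groups and lists were chosen with earlier results of these data known. DESeq2 1.42.0, other scalings, filters and covariates, each line alone, and leaving out each preparation were tried as alternatives. Figures were drawn with matplotlib 3.10.9 in Python 3.11.15.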

Additional observations from a re-analysis of the deposited data

Results flagged for a closer look

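The named members below changed between stages differently in H1 and MEL1 by the test of that difference (edgeR, adjusted p under 0.1 and at least 2-fold). Each value is the log2 change in MEL1 minus that in H1, with 2 libraries per line and stage. At S3 against S0 the difference was positive for amino acid transporters SLC7A8 (3.37), SLC1A1 (2.82), SLC3A2 (2.21), SLC1A3 (2.06), SLC38A10 (1.74), SLC7A6 (1.74) and SLC7A2 (1.41), and negative for SLC7A1 (-3.67), SLC38A1 (-2.01), SLC38A2 (-1.56) and SLC1A5 (-1.41). Among sugar transporters it was -3.15 for SLC2A1, -2.22 for SLC2A6 and 1.77 for SLC2A10. Among zinc transporters it was 2.10 for SLC39A14, 1.11 for SLC39A7, -1.48 for SLC39A10, -1.20 for SLC30A1 and -1.18 for SLC30A6. Of the other members, the values were 3.21 for SLC17A9, 2.06 for SLC22A23, 1.90 for SLC25A5, 1.77 for SLC12A7, 1.73 for SLC9A3-AS1, 1.71 for SLC46A1, 1.57 for SLC25A6, 1.33 for SLC29A4 and 1.31 for SLC26A11.

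At S6 against S0 the difference was 3.43 for SLC17A9, 3.34 for SLC1A1, 3.08 for SLC29A4, 2.77 for SLC20A1, 2.34 for SLC6A8, 2.25 for SLC22A23, 2.20 for SLC43A1, 1.85 for SLC12A7, 1.80 for SLC16A3, 1.73 for SLC25A6, 1.55 for SLC38A10, 1.52 for SLC9A3-AS1, 1.22 for SLC2A10, 1.16 for SLC29A1, 1.10 for SLC39A7 and 1.01 for SLC1A5. For SLC2A6 it was -2.01. SLC1A5 was thus more negative in MEL1 at S3 and more positive at S6. Both comparisons share the S0 libraries. Named members with at most 3 reads in a line and stage are not given. Hepatocyte marker levels also differed between the lines, and their part was not tested.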

How the results depend on the processing

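Counts of called members are given against 39, 2, 6 and 41 for expression and 0, 35, 26 and 2 for m6A at S3 against S0, S4 against S3, S6 against S4 and S6 against S0. DESeq2 called 6 genes at S4 against S3, and for m6A 3, 45 and 19 peaks at S3 against S0, S6 against S4 and S6 against S0. For m6A, RLE size factors and TMM within each library type each called 12 peaks between S3 and S4 and 1 at S6 against S0. Without the cell line, 0 genes were called at S4 against S3, where 2 had been, and 3 at S6 against S4. H1 alone gave 10 genes at S4 against S3 and 19, 188, 163 and 24 peaks. MEL1 alone gave 61, 15 and 26 genes in the first 3 comparisons and 37, 75, 62 and 45 peaks. Without both MEL1 S4 preparations, chosen after seeing the data, 1, 75, 69 and 19 peaks were called. A term for each preparation, also added after seeing the data, gave 0, 49, 44 and 1 peaks. Of the 35 and 26 peaks 32 and 21 were also called with it. Leaving out 1 preparation gave 33 to 45, 1 to 3, 2 to 8 and 39 to 46 genes, and 0 to 0, 5 to 41, 13 to 46 and 0 to 5 peaks. The differences between lines, 50 and 36 genes, ranged from 41 to 51 and from 26 to 42. For expression, the 1 gene at S4 against S3 was met without H1 S3 replicate 2, H1 S4 replicate 2 or any of the 4 MEL1 preparations of S3 and S4, and the 2 genes at S6 against S4 without any of the 4 MEL1 preparations of S4 and S6. For m6A at S4 against S3, counts were 22 and 19 without H1 S3 replicates 1 and 2, 5 and 13 without H1 S4 replicates 1 and 2, and 11 without MEL1 S3 replicate 2. At S6 against S4 they were 13 and 17 without H1 S4 replicates 1 and 2, 15 and 17 without H1 S6 replicates 1 and 2, 46 without MEL1 S4 replicate 1, and 15 and 14 without MEL1 S6 replicates 1 and 2. At S6 against S0 they were 4 or 5 without a MEL1 S4 preparation and 0 or 1 without 11 others.

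Signs were compared for named genes that were called in both lines together or in the line alone, and further members had opposite signs in H1 and MEL1 below these limits. In H1 alone the sign was reversed for SLC3A2 at S3 against S0 (-1.14), SLC20A1 at S6 against S4 (-0.0011) and S6 against S0 (-0.0542), and SLC43A1 at S6 against S4 (-1.71). In MEL1 alone it was reversed for SLC2A1 (-1.49) and SLC7A8 (1.51) at S3 against S0, SLC7A8 at S6 against S4 (-1.06) and SLC17A9 at S6 against S0 (1.15). The cause was not tested. Of 69 calls of named genes 52 held without each single preparation, 17 were lost in at least 1 case and 0 were reversed. Deviations of same-numbered libraries correlated between -0.0078 and 0.0522 in H1 and between 0.0656 and 0.1282 in MEL1. Since not every correlation was over 0.1, the numbers were not taken as pairs. With the replicate block, 50 and 35 genes differed between lines, 39, 1, 4 and 42 genes and 0, 28, 21 and 0 peaks were called, and SLC16A3 at S4 against S3 and SLC12A2 and SLC20A1 at S6 against S4 were not. Depth limits members with few reads.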
